A study of Mus musculus with 2 samples.

Results

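The Snail and Zeb genes (Snai1, Snai2, Snai3, Zeb1 and Zeb2) encode zinc finger repressors of the epithelial state. They were taken by symbol from the GENCODE M21 gene tables of embryonic mouse limb, which gave 5 of 55536 genes and 44 of 141862 transcripts. All samples came from limbs of B6NCrl embryos at 12.5 days, with both sexes pooled, as 1 group. Its 2 biological replicates pooled 88 embryos (replicate 1) and 68 embryos (replicate 2), so a value is a mean over whole limbs of many embryos. The labels give no mutation, treatment or second group. PolyA RNA was sequenced from 10 ng of total RNA per library by oligo-dT priming.

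Snail and Zeb proteins bind short E-box sequences with their zinc fingers and recruit co-repressors such as CtBP or histone deacetylases, and E-cadherin (Cdh1) is their best known target. They act in epithelial to mesenchymal transition, the change from a sheet of joined cells to loose migrating cells, as in gastrulation and the delamination of the neural crest. The limb bud is built mainly of mesenchyme under an epidermal cover, and Zeb messages are held down in epithelia by the miR-200 family of microRNAs.

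Replicates 1 and 2 had 29633457 and 30118921 expected reads over genes, and 15181 genes reached 1 TPM, a level that is relative to length and depth, in both. Spike-in RNA held 7.34% and 5.13% of TPM. All 8 limb genes looked up reached 1 TPM in both libraries, among them the limb mesenchyme factor Prrx1 at 157 ± 3.34 TPM, Tbx5 of the forelimb at 34.2 ± 8.19 TPM and Tbx4 of the hindlimb at 32.9 ± 3.18 TPM (SD, n = 2 libraries here and below). These 8 genes were chosen after the tables had been seen.

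The microRNAs that target this family are shown first, because their seeds divide the 5 genes. The mature sequences were taken from RefSeq (GRCm38.p6), with the seed, bases 2 to 8, in capitals. The first 3 share 1 seed (called the miR-200b seed below) and the last 2 share another (the miR-200a seed).
mmu-miR-200b-3p: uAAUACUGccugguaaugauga
mmu-miR-200c-3p: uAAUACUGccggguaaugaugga
mmu-miR-429-3p: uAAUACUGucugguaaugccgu
mmu-miR-200a-3p: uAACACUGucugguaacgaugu
mmu-miR-141-3p: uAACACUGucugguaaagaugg

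The hairpin genes of these 5 microRNAs were listed at 0 TPM in both libraries, at an effective length of 0, so these data do not measure them. The complement of each seed, CAGTATT for miR-200b and CAGTGTT for miR-200a, was searched on the message strand of annotated 3' untranslated regions (UTRs). Matches to the 2 motifs cannot overlap, since neither ends in letters with which the other starts. A match is a description of letters and not a tested site.

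Zeb1 and Zeb2 held many more matches than the Snail genes. The 3' UTR of Zeb1-201 (2401 bases) held 5 matches to the miR-200b seed and 4 to the miR-200a seed, or 3.75 per kilobase. That of Zeb2-201 (1450 bases) held 5 and 3, or 5.52 per kilobase. Snai2 held 1 of each in 1089 bases, or 1.84 per kilobase. Snai1 held 1 miR-200b match in 731 bases, or 1.37 per kilobase, and Snai3 held none of either in 645 bases.

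For comparison, 12622 protein-coding genes at 1 TPM in both libraries had a complete transcript with a 3' UTR, of median length 920 bases, and together they averaged 0.289 matches per kilobase. The rates of Snai1 and Snai2 were also above this average, on 1 and 2 matches. Of these genes, 26.9% held at least 1 match to either seed, 8.48% held 2 or more and 2.87% held 3 or more. Counted on the most abundant complete transcript of each gene, only Zeb1 held 9 or more, and 2 genes, Zeb1 and Zeb2, held 8 or more. The less abundant Zeb2-212 also holds 9. Longer UTRs have room for more matches, which is why the rate per kilobase is given too.

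**Figure D1:**
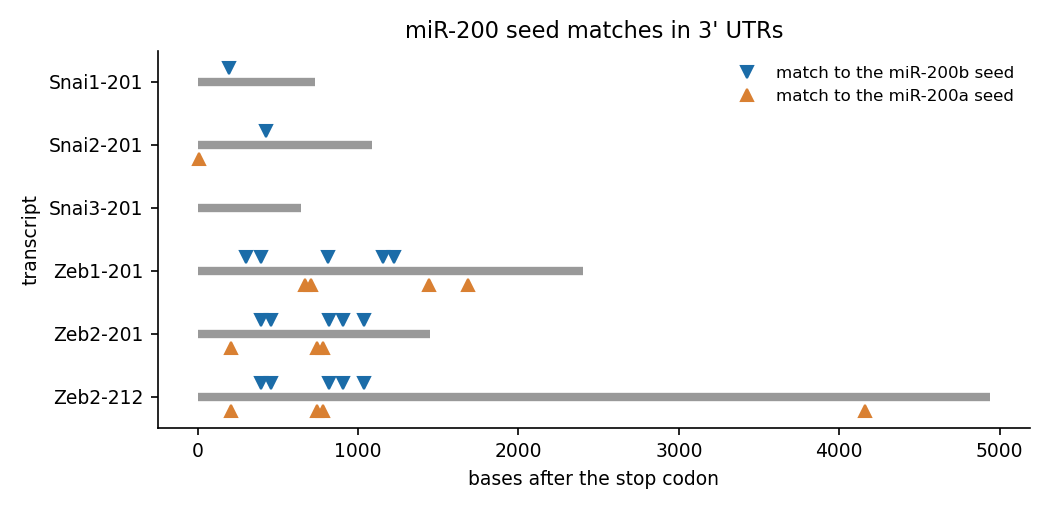
Matches to the 2 miR-200 seeds along the 3' UTR of the most abundant complete transcript of each gene, and of Zeb2-212, the transcript with the longest 3' UTR. The x axis is the distance after the stop codon in bases, grey bars are the UTRs, downward triangles mark the miR-200b seed and upward triangles the miR-200a seed; Zeb1-201 and Zeb2-201 hold 9 and 8 matches.

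The matches of Zeb2-201 lie on chromosome 2, minus strand (GRCm38), and 3 are printed with their flanks, the match in capitals. They are examples of both motifs and of matches that not all Zeb2 transcripts hold, as described further on.
Zeb2 chr2:44988174-44988180: gcccgcactaccatacatCAGTATTttatt
Zeb2 chr2:44988109-44988115: gcccgcactacagtgcatCAGTATTacgat
Zeb2 chr2:44987826-44987832: gcaagtgccatccttgtaCAGTGTTcagag

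The Snail genes carry single matches to several of the microRNAs reported to act on them. The Snai1 3' UTR (chromosome 2, plus strand) held 1 match each for miR-200b, miR-34a and miR-30, and that of Snai2 (chromosome 16, plus strand) held 1 each for miR-200b, miR-200a, miR-203 and miR-30. The miR-34a motif is CACTGCC, that of miR-203 CATTTCA and that of miR-30 TGTTTAC, and these were found in 14.9%, 14.7% and 14.5% of the 12622 genes. Zeb1 held 1 match each for miR-203 and miR-205 (ATGAAGG, in 9.92% of the genes), and Zeb2 held none for these 4 other microRNAs. In Snai2 the miR-200a and miR-30 matches overlap in part. A match that each Snail gene has and the other lacks is printed.
Snai1 miR-34a chr2:167542137-167542143: ggagctcaccctcctcctCACTGCCaggac
Snai2 miR-203 chr16:14708706-14708712: tttacactgctgccaaacCATTTCAaccaa

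Among the Snail genes, Snai1 and Snai2 were the most abundant members of the whole family and Snai3 was at the edge of detection. Snai1 (ENSMUSG00000042821.7, chromosome 2, 167538195 to 167542814, plus strand), which encodes the Snail repressor needed at gastrulation, stood at 64.07 TPM in replicate 1 and 55.00 TPM in replicate 2, from 1925 and 1669 reads. Snai2 (ENSMUSG00000022676.7, chromosome 16, 14705852 to 14709385, plus strand), which encodes Slug, stood at 70.48 and 52.35 TPM, from 2674 and 2006 reads. Replicate 1 was the higher library for both genes. The means were 59.5 ± 6.41 TPM for Snai1 and 61.4 ± 12.8 TPM for Snai2, ranks 2943 and 2845 among 22028 protein-coding genes.

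Snai3 (ENSMUSG00000006587.6, chromosome 8, 122454208 to 122460733, minus strand), the third and least studied Snail gene, stood at 0.30 and 0.13 TPM. These levels rest on 9 and 4 reads, where 3 reads correspond to 0.0994 and 0.0984 TPM. The mean of 0.215 ± 0.120 TPM ranked 14930. The related Scratch genes, neural repressors with the same zinc finger type, were lower still, with 2 and 1 reads of Scrt1 and 1 and 0 reads of Scrt2.

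Zeb1 (ENSMUSG00000024238.15, chromosome 18, 5591860 to 5775467, plus strand), a repressor with 2 zinc finger clusters around a homeodomain, stood at 24.22 and 25.76 TPM, from 1727 and 1860 reads. Zeb2 (ENSMUSG00000026872.17, chromosome 2, 44983632 to 45117395, minus strand), its paralog that also binds activated Smad proteins, stood at 11.53 and 9.80 TPM, from 913 and 781 reads. Zeb1 was higher than Zeb2 in both libraries, with means of 25.0 ± 1.09 and 10.7 ± 1.22 TPM. The median of protein-coding genes at 1 TPM in both libraries was 22.4 TPM, so Zeb1 lay close to it and Zeb2 below it.

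The 3 Snail genes summed to 134.85 and 107.48 TPM and the 2 Zeb genes to 35.75 and 35.56 TPM. Snail genes thus made up 79.0% and 75.1% of the family's TPM. The Zeb sum differed little between the libraries, with Zeb1 higher in replicate 2 and Zeb2 in replicate 1. The RNA is from whole limb, so a lower level can be fewer cells of a type or less RNA per cell, and these cannot be told apart.

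**Figure D2:**
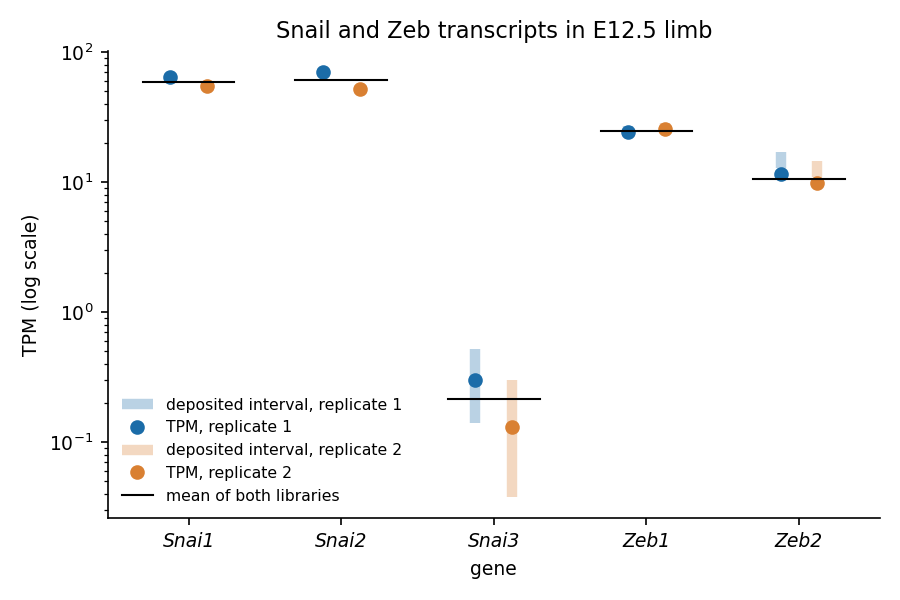
TPM of the 5 genes on a log axis, with 1 point per library, the mean as a black line and the authors' deposited interval as a shaded bar. Snai1 and Snai2 sit between 52.35 and 70.48 TPM, Zeb1 and Zeb2 below them, and Snai3 under 1 TPM; both Zeb2 points lie under their own bars.

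The order of levels was read against the spread of genes of like level, for which the 500 genes nearest in mean TPM to the lower gene were used. It is the 95th percentile of their absolute log2 TPM difference from one library to the other. This stands in for a test, since 2 values against 2 cannot give an exact two-sided p below 0.33. The spread covers how a gene differs between libraries, and not errors of length or of giving reads to transcripts between different genes. Snai2 and Snai1 were not ordered: their log2 ratio was 0.14 in replicate 1 and -0.07 in replicate 2, against a spread of 0.26. Snai1 exceeded Zeb1 by 1.40 and 1.09 on the log2 scale, 2.38-fold on average, past a spread of 0.36. Zeb1 exceeded Zeb2 by 1.07 and 1.39, 2.35-fold, past a spread of 0.47. Zeb2 exceeded Snai3 by 5.26 and 6.24, past a spread of 2.17, and that ratio rests on the 9 and 4 reads of Snai3.

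This order depends on length as well as on reads. The abundance-weighted transcript length was 3712 and 3720 bases for Zeb1 and 4110 and 4098 bases for Zeb2, against 1621 for Snai1. When reads were not divided by length, the order of Snai1 and Zeb1 differed between the libraries (mean log2 ratio 0.00031). Snai1 had 1925 reads against 1727 of Zeb1 in replicate 1, and 1669 against 1860 in replicate 2. The Zeb genes held 36.4% and 41.8% of the family's reads, more than their share of its TPM.

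The interval deposited for Zeb2 did not contain its deposited TPM in either library. It ran from 12.9 to 17.0 TPM in replicate 1 and from 10.9 to 14.5 TPM in replicate 2, around posterior means of 14.85 and 12.69 TPM. For the other 4 genes the deposited TPM lay inside the interval in both libraries. On the posterior mean scale Zeb2 was at 13.8 TPM on average, still the lower Zeb gene.

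Between the 2 libraries, Snai2 differed most of the 4 genes tested and Zeb1 least. The exact two-sided binomial test on expected counts compares these 2 libraries and not conditions, and its p-values were adjusted by Benjamini-Hochberg over the 15926 genes that averaged 1 TPM. A call needed a 2-fold TPM ratio as well as an adjusted p under 0.05, and 0 of the 4 genes met both, where 1.07% of all genes tested did. The count was also 0 with DESeq2 size factors or total counts as library sizes. At an adjusted p under 0.05 with no fold minimum 3 genes passed, where 19.2% of all genes tested did. The median log2 ratio of all genes tested was -0.01. Snai3 was under 1 TPM on average and was not tested.

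Snai2 was 1.35-fold higher in replicate 1, a log2 ratio of 0.43 (exact binomial test, adjusted p = 1.16e-22). This passed the 95th percentile of genes of like level, 0.24, and lay just under their 99th (0.429 against 0.430). Snai1 was higher in the same library by 0.22 (exact binomial test, adjusted p = 5.09e-05), within its spread of 0.26 but past the 90th percentile of genes of like level, 0.19. Zeb2 was higher there by 0.23 (exact binomial test, adjusted p = 0.00455), within 0.47. Zeb1 had a log2 ratio of -0.09 (exact binomial test, adjusted p = 0.226), within 0.36. Without the fold minimum these 3 genes, Snai1, Snai2 and Zeb2, were called, against 19.2% of all genes tested.

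**Figure D3:**
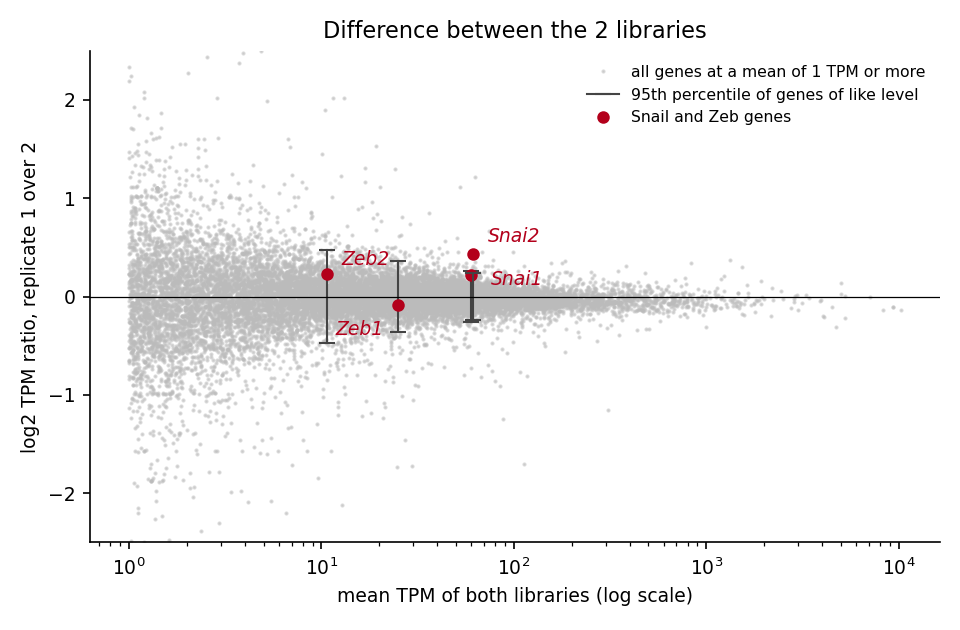
Log2 TPM ratio of replicate 1 over replicate 2 against the mean TPM (log axis), for genes that averaged 1 TPM and were above 0 in both libraries. Grey points are 15737 genes, with 29 more beyond the axis; vertical bars give the 95th percentile of the absolute difference of the 500 genes nearest in level, and Snai2 is the only one of the 4 red points outside its bar.

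Markers of the limb's other tissues were not all level between the same libraries. Of 6 cartilage genes, all at 1 TPM, Matn1 (a cartilage matrix protein, 23.97 and 9.65 TPM) and Acan (aggrecan, 8.07 and 3.90 TPM) were called higher in replicate 1, and the summed cartilage level was 891.83 and 782.30 TPM. Of the 6 neuron genes 4 reached 1 TPM, Sox1 was at 0, and the sum was 23.23 and 30.81 TPM. The 5 epidermis genes, all at 1 TPM, summed to 331.94 and 297.88 TPM. Muscle genes summed to 628.81 and 607.15 TPM (6 of 7 at 1 TPM), endothelial genes to 114.27 and 112.82 TPM (6 of 6), Schwann cell and melanoblast genes to 23.58 and 23.91 TPM (5 of 6) and leukocyte genes to 11.62 and 10.79 TPM (3 of 6, with Cd3e at 0 reads in replicate 1). Of the 8 limb genes looked up, Tbx5 of the forelimb was at 39.96 and 28.38 TPM. Tbx4 of the hindlimb was at 30.6 and 35.1 TPM, and Pitx1 at 135.56 and 163.98 TPM. Matn1 and Acan were the only genes called among all the lists used here, where 1.07% of all genes tested were. The part of these tissues, or of forelimb and hindlimb, in the difference of Snai2 was not tested.

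The protein-coding genes with the most similar pair of values were found for each gene by distance over the 2 libraries in log2 TPM. They were Ube2d1 (64.03 and 54.98 TPM) and Osr2 (65.52 and 55.02 TPM) for Snai1, and Plagl1 (69.12 and 51.47 TPM) and Prrc2b (70.19 and 55.17 TPM) for Snai2. For Zeb1 they were Spryd4 (24.24 and 25.85 TPM) and Prkar2b (24.33 and 25.63 TPM), and for Zeb2 Fgf9 (11.52 and 9.85 TPM) and Tom1l1 (11.50 and 9.89 TPM). With 2 libraries this likeness is one of level only.

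Each Snail gene has 1 annotated transcript, while Zeb1 has 12 and Zeb2 has 29. Zeb1 was dominated by Zeb1-201, a protein-coding transcript of 5801 bases, with 51.3% and 51.1% of the gene's TPM. Zeb1-204, a retained-intron transcript, held 15.2% and 20.3%, and Zeb1-206, annotated for nonsense-mediated decay, 13.5% and 8.66%. Protein-coding transcripts of Zeb1 together held 53.9% and 55.0% of TPM but 81.4% and 81.2% of reads, with TPM counted per length and Zeb1-201 the longest.

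Zeb2 was spread over more transcripts, and less evenly between libraries. Zeb2-201, a protein-coding transcript of 5335 bases, held 33.2% and 19.8%, followed by Zeb2-214 at 13.7% and 19.5% and Zeb2-213 at 14.7% and 16.7%. The deposited TPM intervals of Zeb2-201 overlapped, at 2.41 to 4.75 in replicate 1 and 0.92 to 3.02 in replicate 2. Its posterior mean shares were 24.6% and 15.4%. The retained-intron transcripts Zeb2-209 and Zeb2-226 differed in opposite directions, the former at 12.9% and 2.56% and the latter at 0% and 11.1%. These shares rest on 83.15 and 14.20 expected reads for Zeb2-209 and 0 and 56.45 for Zeb2-226. By posterior mean they were 7.08% and 2.13%, and 2.56% and 8.03%. For each of the pair the deposited TPM intervals of the libraries overlapped. The retained-intron type as a whole was level, at 17.3% and 18.9%, and protein-coding transcripts held 77.0% and 78.4%. The effective number of transcripts, the exponential of the entropy of the shares, was 3.17 and 3.13 for Zeb1 and 5.60 and 7.24 for Zeb2.

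**Figure D4:**
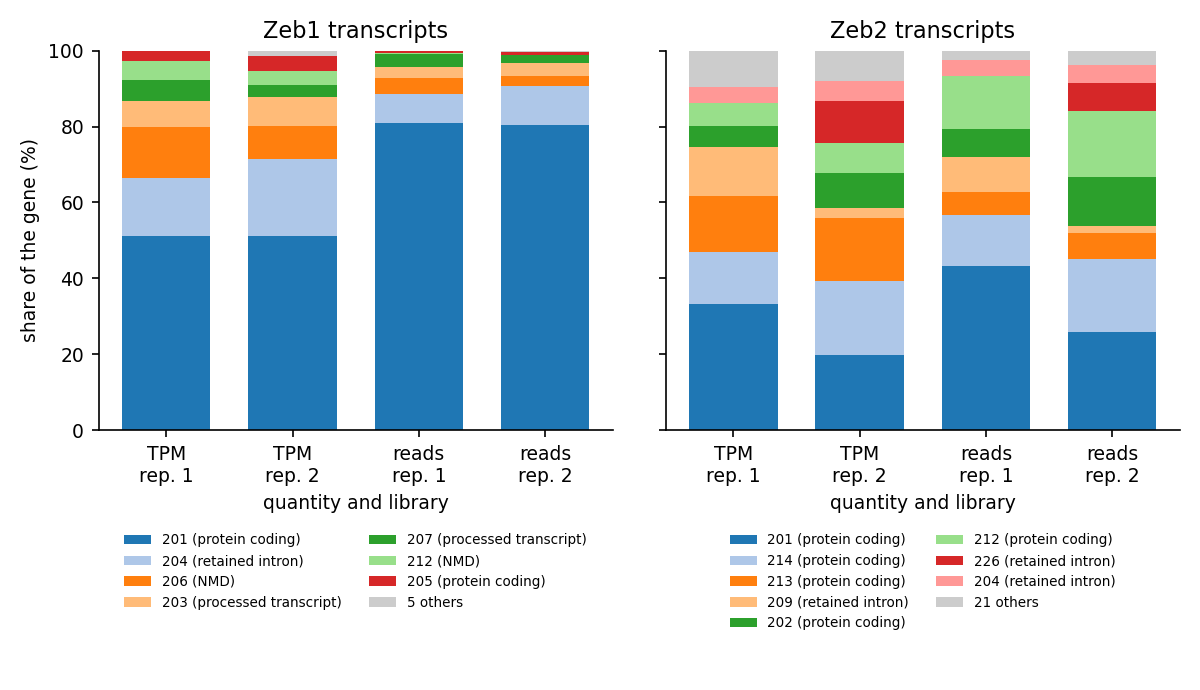
Share of each gene's TPM and of its expected reads held by each annotated transcript, in percent, for Zeb1 (left) and Zeb2 (right), with 1 bar per quantity and library and transcripts under a mean of 3% of TPM in grey. Zeb1-201 holds 51.3% and 51.1% of TPM, while the leading transcript of Zeb2 holds 33.2% and 19.8%, with deposited TPM intervals that overlap.

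The transcripts of Zeb2 differed in whether they carried the miR-200 matches shown above. Zeb2-201, Zeb2-202 and Zeb2-212 hold the match at 44988174, and together had 44.8% and 36.9% of the gene's TPM. With Zeb2-213, whose 3' UTR of 867 bases holds 5 matches, the match at 44987826 was present in 59.6% and 53.6%. Zeb2-214 ends after a 3' UTR of 172 bases with no match, at 13.7% and 19.5%. For Zeb1 the only complete protein-coding transcript is Zeb1-201, which carries the 9 matches. It held 51.3% and 51.1% of the gene's TPM, and 80.9% and 80.5% of its reads. Transcripts of either gene that are incomplete or not protein-coding were not searched.

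The 5' ends of Zeb2 transcripts fell into groups when ends within 1000 bases of the next were joined. The group from 45110076 to 45111174 held 50.7% and 44.7% of TPM, the next one upstream (45112890 to 45113508) 39.4% and 47.5%, and the outermost start, that of Zeb2-212 at 45117395, 6.16% and 7.77%. Of the 2 groups further downstream, the one from 45022915 to 45023670 held 3.82% and 0%, and the one at 45054241 held 0% in both libraries. The order of the 2 main groups in replicate 2 depended on the measure. The group from 45110076 was the lower one by TPM there but the higher by posterior mean (44.6% against 43.1%) and by reads (47.0% against 35.4%), and in replicate 1 it was the higher by all 3 measures. The antisense gene Zeb2os (45110707 to 45114087, plus strand) overlaps both main groups and had 0.36 and 0.59 TPM, from 8.02 and 6.80 expected reads. Whether the counts use strand was not given in the sources used here, so reads of Zeb2 and Zeb2os in the overlap may not be separated.

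Other annotated neighbours were low. Gm10125, a noncoding gene on the opposite strand that overlaps Zeb1, had 1.32 and 1.46 TPM, and Gm2238 and Gm16147, also opposite to Zeb1, had 0.40 and 0.58 and 0.37 and 0.18 TPM. The noncoding gene Gm20735, which starts within 5000 bases of Snai3 on the same strand, had 4.39 and 3.92 TPM, above Snai3 in both libraries. Gm20388, a long gene model that spans Snai3, and Gm11474 near Snai1 had 0 reads. The short RNA genes inside Zeb1 and Zeb2 (Gm22709, Mir5129, Gm27761, Gm27404 and Gm27645) were listed at 0 with an effective length of 32 bases or less.

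The windows before the starts of Snai1 and of the second Zeb2 group are printed because Snail proteins are known to bind an E-box in the Snai1 promoter itself. Each is the 250 bases before a RefSeq start (GRCm38.p6), searched on both strands for CAGGTG, whose reverse complement is CACCTG. The motif is in capitals where present, and 17.2% of 32851 such windows hold it.
Snai1 chr2:167537945-167538194, plus strand: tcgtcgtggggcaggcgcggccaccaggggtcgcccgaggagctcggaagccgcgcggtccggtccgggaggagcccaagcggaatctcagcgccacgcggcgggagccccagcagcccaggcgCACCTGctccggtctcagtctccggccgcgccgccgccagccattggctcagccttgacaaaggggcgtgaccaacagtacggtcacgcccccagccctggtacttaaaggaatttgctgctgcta
Zeb2 chr2:45113280-45113529, minus strand: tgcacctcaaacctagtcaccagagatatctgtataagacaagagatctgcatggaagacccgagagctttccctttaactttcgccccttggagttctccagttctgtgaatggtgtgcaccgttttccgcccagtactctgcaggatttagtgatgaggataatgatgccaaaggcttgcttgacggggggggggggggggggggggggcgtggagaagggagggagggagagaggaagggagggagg

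The Snai1 window held 1 match, with its first base at position -126 from the start, in sequence of 70.0% G and C. None of the 4 Zeb2 windows held the motif. Promoter windows of Snai2, Snai3 and Zeb1 were not analysed here.

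The listed co-repressor and Smad genes all reached 1 TPM in both libraries. Over all protein-coding genes, 12802 of 22028 reached 1 TPM in each library. Of the co-repressor genes 12 of 12 did, at a median of 73.6 TPM, led by Ctbp1 (a co-repressor bound by Zeb proteins) at 342 ± 11.7 TPM, and by the histone deacetylases Hdac2 at 295 ± 3.74 TPM and Hdac1 at 225 ± 4.18 TPM. The lowest was Wtip, a LIM protein, at 6.81 ± 0.318 TPM. All 5 Smad genes, whose proteins carry TGF-beta and BMP signals, reached 1 TPM. They were led by Smad2 at 48.7 ± 2.77 TPM, Smad5 at 43.0 ± 1.42 TPM and Smad1 at 39.1 ± 3.06 TPM, with Smad4 lowest at 17.7 ± 1.04 TPM. None of these 17 genes was called between the libraries, where 1.07% of all genes tested were.

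Genes for kinases and ubiquitin ligases that act on Snail and Zeb proteins were all detected, 12 of 12 at a median of 22.7 TPM. They were led by the ligase gene Siah1a at 58.1 ± 1.60 TPM, the kinase gene Gsk3b at 53.0 ± 2.45 TPM and Mdm2 at 46.4 ± 1.71 TPM, with the ligase gene Fbxl14 lowest at 3.59 ± 0.438 TPM. All 15 listed inducers reached 1 TPM, at a median of 35.8 TPM. Ybx1, an RNA-binding protein, led at 824 ± 2.38 TPM, ahead of the chromatin protein gene Hmga2 at 103 ± 3.46 TPM and the hypoxia factor Hif1a at 92.0 ± 0.544 TPM, while the ligand gene Tgfb1 was lowest at 1.51 ± 0.283 TPM. None of these 27 genes was called, against 1.07% of all genes tested.

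Listed epithelial genes had a lower median than listed mesenchymal genes. The 5 epidermis genes, which were listed apart, had a median of 49.3 TPM, so the size of this contrast depends on which genes were listed. Of 18 epithelial genes known as targets, 17 reached 1 TPM in each library, and the median of the 18 was 6.88 TPM. P-cadherin (Cdh3) was at 50.2 ± 2.32 TPM, Epcam, an epithelial adhesion molecule, at 44.0 ± 2.52 TPM and the polarity gene Patj at 20.2 ± 0.509 TPM, and Mal2 was lowest at 1.10 ± 0.0919 TPM. E-cadherin itself (Cdh1) was at 11.99 and 10.78 TPM, below Snai1 and Snai2 in both libraries and close to Zeb2. It was named in addition to the rule because it is the best known target. Of 10 epithelial factors, many of which act against Zeb and Snail genes, 8 reached 1 TPM, with a median of 3.69 TPM over all 10, led by Grhl3 at 9.01 ± 0.467 TPM and the splicing regulators Esrp1 at 6.51 ± 0.742 TPM and Esrp2 at 6.11 ± 0.304 TPM. Cdx2, the lowest, had 0 reads.

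Of 18 mesenchymal genes, 17 reached 1 TPM, at a median of 139.8 TPM. The collagen gene Col3a1 was at 692 ± 4.32 TPM, vimentin (Vim) at 390.3 ± 5.36 TPM and the matrix protein gene Sparc at 368 ± 19.0 TPM, with Thy1 lowest at 0.250 ± 0.170 TPM. None of the epithelial or mesenchymal genes was called between the libraries, where 1.07% of all genes tested were. Whole limb includes its epidermal cover, whose keratin genes Krt14 and Krt5 stood at 119.9 ± 7.21 and 82.9 ± 3.12 TPM, and the libraries do not show which cells hold which genes.

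**Figure D5:**
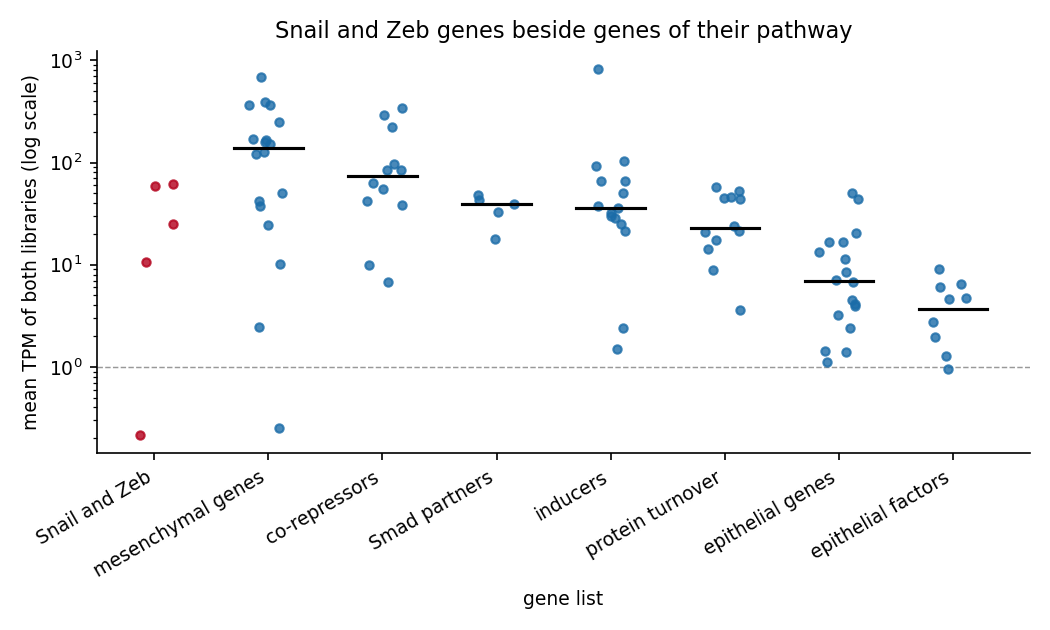
Mean TPM of both libraries, on a log axis, for the 5 genes (red) and for 7 lists of related genes (blue, 1 point per gene, black line at the list's median, dashed line at 1 TPM). Medians run from 139.8 TPM for mesenchymal genes to 3.69 TPM for epithelial factors; Cdx2, at 0, is not drawn.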

How the data were processed

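The authors deposited expected counts, TPM and FPKM of genes and transcripts in the RSEM layout, made with GENCODE M21 and M4 on mm10, per the file headers and library notes. The deposited percent is each transcript's share of its gene, and the interval bounds of TPM (a signal with its level not stated) and posterior mean TPM are also the authors'. The aligner, the program version and any use of strand have no entry in the labels or headers and count as not given in the sources used here.

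M21 was the main annotation. Expected counts were rounded and compared by an exact two-sided binomial test with edgeR 4.0.16 TMM library sizes. Adjustment was by Benjamini-Hochberg over genes at a mean of 1 TPM. The call, which also needs the 2-fold ratio, was tried on simulated counts, and p-values without that ratio were not. Log2 ratios in the report have no pseudocount. p-values measure only these 2 libraries. DESeq2 1.42.0 size factors and other settings were alternatives. Library sizes exclude tRNA and spike-in entries. Depth gave Snai3 9 and 4 reads, where a floor is 3 reads. Counting intervals cover counting error only.

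The members and lists were chosen with earlier results of these data known, and the microRNAs and motifs after the levels had been seen. Named genes are all members, the 3 most abundant, the lowest and any called gene of each list, genes overlapping or starting within 5000 bases of a member, and the 2 nearest in level. For the marker lists only called genes and genes at 0 are named, with Krt14 and Krt5. Coordinates and 3' UTRs come from GENCODE M21 (GRCm38), and promoters and microRNAs from RefSeq.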

Additional observations from a re-analysis of the deposited data

How the results depend on the processing

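Of the main results under the alternatives, 70 values kept their direction and call, and these did not. The level of Zeb1 was 27.3 TPM when TPM was rescaled without mitochondrial, tRNA and spike-in entries. This rescaling raised every member, with Snai1 at 65.1, Snai2 at 67.2 and Zeb2 at 11.7 TPM. Only for Zeb1 was the rise larger than the SD of its main level, 1.09 TPM. The ratios between libraries and their spreads were not computed on this scale. As a posterior mean the level of Zeb2 was 13.8 TPM. With reads not divided by length the mean log2 ratio of Snai2 over Snai1 was 0.37, past the spread, and that of Snai1 over Zeb1 was 0.00031, within it. The first ratio ran from -0.071 to 0.14 with 1 library left out, and reversed without replicate 1. In a comparison chosen after seeing the data, against the 90th percentile of genes of like level (0.19) the difference of Snai1 between the libraries was past the spread, and against the 99th (0.43) that of Snai2 was within it. With no fold minimum 3 members differed between the libraries, where 19.2% of all genes tested did. The share of Zeb1-201 was 80.7% of expected counts, 47.3% by posterior mean and 54.7% with GENCODE M4. The cause of the 2 posterior mean shifts and the M4 shift was not tested. For Zeb2-201 the mean share of 26.5% became 20.0% by posterior mean and 35.8% with GENCODE M4, both within its SD of 9.46. At a minimum of 5 TPM, 4 list counts fell by more than 1.5 times, since fewer genes pass. Depth limits Snai3 and the single Zeb2 transcripts. No paired analysis was possible because there is only 1 group.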
